A study of Mus musculus with 24 samples.

Results

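The comparison asked which hippocampal messenger RNAs responded to a ketogenic diet in one mouse genotype differently from the other. It used 16 of the 24 libraries of the series, chosen by their labels: ketogenic and control diet in 3xTg-AD mice (3xTg) and in wild-type mice (WT). The quantity measured for each gene was the interaction, the ketogenic minus control difference in 3xTg mice minus the same difference in WT mice, in log2 units. A positive interaction means that the ketogenic minus control difference was more positive in 3xTg mice.

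All mice were female, were 3 months old when the diets began, and ate them for 6 months. The 3xTg-AD line carries human APP and MAPT transgenes, expressed in neurons from a Thy1 cassette, and is used as a model of Alzheimer's disease. The WT mice were B6129SF2/J, a hybrid stock that is kept apart from the 3xTg-AD colony, so genotype and colony background cannot be told apart. The control diet held 70% carbohydrate, 20% long-chain triglycerides and 10% protein at 4.1 kcal/g, and the ketogenic diet 90% long-chain triglycerides and 10% protein, with no carbohydrate, at 6.7 kcal/g. There were 3 libraries of 3xTg mice on the control diet (3xTg_C), 5 of 3xTg on the ketogenic diet (3xTg_K), 4 of WT on the control diet (WT_C) and 4 of WT on the ketogenic diet (WT_K). The remaining 8 libraries, from mice given medium-chain triglycerides, entered only the estimate of the spread.

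A ketogenic diet removes carbohydrate, so that the liver makes ketone bodies from fat and the brain burns them in its mitochondria. Interferons are signalling proteins that switch on a set of antiviral and antigen-presenting genes, among them the class I molecules of the major histocompatibility complex (MHC), which microglia, endothelial cells and neurons can all express. Motile cilia are the beating hairs of the ependymal cells that line the ventricles beside the hippocampus, and the choroid plexus is the tissue in the ventricles that secretes cerebrospinal fluid.

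The promoters of H2-Q4 and Oasl2 are shown first because their values in each library are described below as examples of the interferon and MHC class I lists. The letters are the 250 bases before the annotated start, 5′ to 3′ on the gene's strand, from RefSeq on GRCm38.p6. H2-Q4, an MHC class I gene, has its window at chr17:35379367-35379616 on the plus strand, and Oasl2, an antiviral gene, at chr5:114896684-114896933 on the plus strand. No motif is marked in them, although the letters GTTGCC, which are capitalised in the ciliary windows below, also stand in the Oasl2 window.
H2-Q4: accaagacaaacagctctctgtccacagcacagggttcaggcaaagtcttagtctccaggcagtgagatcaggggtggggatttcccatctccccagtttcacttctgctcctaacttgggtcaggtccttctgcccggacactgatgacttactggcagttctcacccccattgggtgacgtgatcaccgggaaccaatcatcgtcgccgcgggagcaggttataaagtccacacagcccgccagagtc
Oasl2: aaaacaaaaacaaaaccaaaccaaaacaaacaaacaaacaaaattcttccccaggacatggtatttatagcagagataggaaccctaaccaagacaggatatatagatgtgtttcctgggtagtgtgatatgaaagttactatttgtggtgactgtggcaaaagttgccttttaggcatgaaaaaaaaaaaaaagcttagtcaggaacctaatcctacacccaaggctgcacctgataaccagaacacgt

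Promoters of 2 genes of the motile cilia list, the list with the most positive median, are shown with a short motif. They were chosen among members that held it, so members of smaller p without a match or a window are not shown. Their unadjusted limma p for the interaction was 0.030 for Dynlrb2 and 0.097 for Tekt1. The windows have the same length and source, and capitals mark GTTGCC or its reverse complement GGCAAC, on either strand, a core of the sites of the regulatory factor X proteins that control ciliary genes. Dynlrb2, a dynein light chain, lies at chr8:116504765-116505014 on the plus strand and Tekt1, a filament protein of the ciliary axoneme, at chr11:72361883-72362132 on the minus strand, where 2 separate matches stand.
Dynlrb2: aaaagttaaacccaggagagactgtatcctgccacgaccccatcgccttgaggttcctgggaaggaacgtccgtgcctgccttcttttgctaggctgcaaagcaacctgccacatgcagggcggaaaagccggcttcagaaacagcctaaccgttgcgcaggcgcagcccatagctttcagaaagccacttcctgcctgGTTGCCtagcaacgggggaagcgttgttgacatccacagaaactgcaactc
Tekt1: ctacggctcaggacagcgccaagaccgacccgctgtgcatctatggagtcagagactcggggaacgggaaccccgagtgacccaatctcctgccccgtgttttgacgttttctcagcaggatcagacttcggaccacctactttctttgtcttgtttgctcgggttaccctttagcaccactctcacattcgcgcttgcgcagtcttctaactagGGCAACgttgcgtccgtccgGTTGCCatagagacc
Of 12 measured members 9 had a window and 4 held the motif. By windows, 4 of 13 (30.8%) held it, against 3425 of 32851 windows of all genes (10.4%). A match describes the letters in a window and is no evidence that a factor was bound.

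The 16 libraries held between 2.65 M and 16.1 M reads assigned to genes, and every library but 3xTg_K_2, the lowest, had at least 10.1 M. In 3xTg_K_2 a single read corresponds to 5.40 normalised counts, so its low values are coarse. Thy1, which the cassette adds to in 3xTg mice, was between 6952 and 7893 normalised counts in the WT libraries and between 20385 and 29277 in 6 of the 3xTg libraries. The other 3xTg libraries, 3xTg_C_3 at 9189 and 3xTg_K_1 at 8112, were close to the WT level, and their App values of 23524 and 23019 lay within the WT range. Both libraries thus go against their 3xTg label in these genes, and the cause was not tested. The results are therefore given with these libraries and, as the repeat, without them, which leaves 2 libraries of 3xTg_C and 4 of 3xTg_K. Of the libraries that entered only the estimate of the spread, the one labelled WT_M_2 had Thy1 at 23048 and App at 30297, which goes against its label. App, Mapt and Thy1 can also hold transgene reads, and their interactions were 0.13 ± 0.16 (standard error, SE), -0.01 ± 0.09 and 0.10 ± 0.48. Hippocampal markers were present in all 16 libraries. Prox1 of the dentate gyrus was between 1734 and 2577 normalised counts and Wfs1 of CA1 between 1153 and 2451. C1ql2, another dentate gyrus gene, was at 662 in 3xTg_C_3 and 605 in 3xTg_K_1. It was between 235 and 346 in the other 3xTg libraries and between 611 and 857 in the WT libraries. Prox1 did not follow that split, at 1963 and 1805 in these low-Thy1 libraries against 1734 to 2071 in the other 3xTg libraries.

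No gene's ketogenic response differed between the genotypes at the threshold used, an adjusted p under 0.05. The test was limma's moderated test on log2(normalised count + 1), two-sided, with Benjamini-Hochberg adjustment over the 14162 genes that reached 10 normalised counts in at least 3 libraries. It called 0 genes (percent called 0), with a smallest adjusted p of 0.724, and the repeat called 0 of 14134, with a smallest adjusted p of 0.748. At an unadjusted p under 0.05, limma gave 946 genes (6.68% of those tested), where 708 would have that p if no gene differed, of which 473 were positive (3.34%) and 473 negative (3.34%). edgeR's quasi-likelihood test gave 465 positive and 451 negative genes at that p, and DESeq2 430 and 404, both with 0 called. The median SE of an interaction was 0.14 log2 units. All fold differences below are therefore given as values that did not pass the test.

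Among the 946 genes, 914 (96.6%) had diet differences of opposite sign in 3xTg and WT mice, and for 308 neither difference alone had an unadjusted p under 0.05, which follows in part from choosing genes by the interaction. The repeat gave 934 genes (6.61%), 430 positive (3.04%) and 504 negative (3.57%), of which 612 were among the first 946 with the same sign. Without 3xTg_C_2 the first count was 1464. The repeat's count was 1438 without 3xTg_C_2 and 314 without 3xTg_C_1, fits in which 1 control library stands for its group and is assumed to vary like the others. Within each genotype the diet called 0 genes with limma. At an unadjusted p under 0.05 there were 948 genes in 3xTg mice and 654 in WT mice. If no gene differed, 708 would have that p, so the WT count was below that number.

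**Figure D1:**
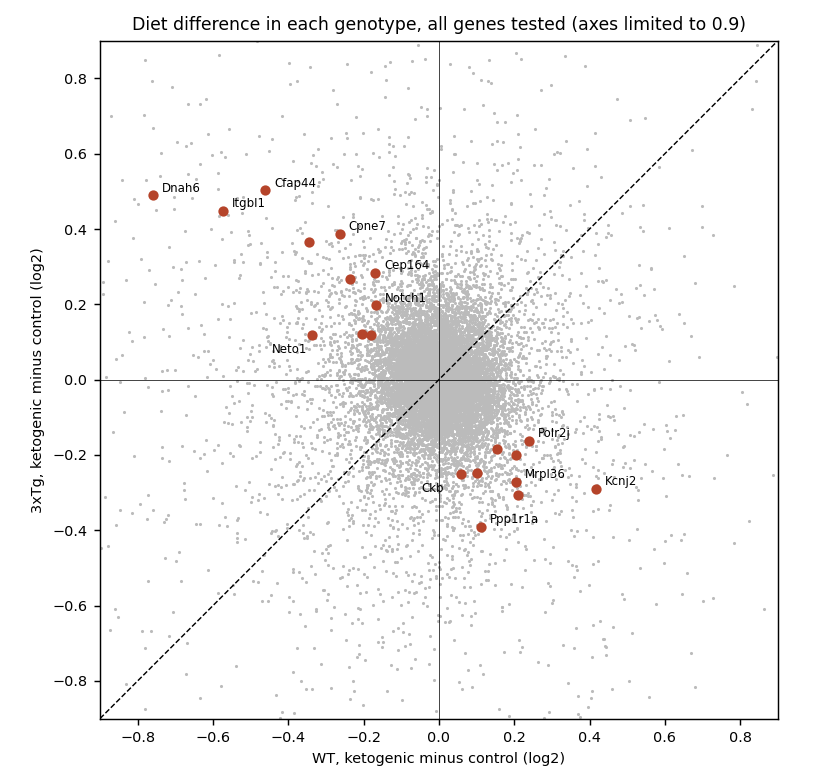
Ketogenic minus control difference (log2) in WT mice (horizontal) against 3xTg mice (vertical) for the 14162 genes tested, with the 20 genes of smallest interaction p in red, 12 of them named, and a dashed line where both differences are equal. Axes stop at 0.9, which leaves 176 genes outside, and the red points lie off the dashed line because they were chosen by that distance.

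Interferon response genes had higher summed values in 4 of 5 3xTg mice on the ketogenic diet than in any 3xTg mouse on the control diet, while the WT diet groups overlapped, and no single gene passed the test. Of 36 listed genes 33 passed the filter, and 29 had a positive and 4 a negative interaction, against 49.8% positive over all genes. The median interaction was 0.49, made of a median diet difference of 0.48 in 3xTg and -0.07 in WT mice, against a median of -0.0007 for all genes. None was called, and 6 had an unadjusted p under 0.05, all positive (18.2% of members, against 3.34% of all genes in that direction). In the repeat the median was 0.83, with 31 positive and 2 negative members. There 13 had an unadjusted p under 0.05, all positive, against 3.04% of all genes.

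Summed over the 33 genes, 3xTg_C libraries held 2523, 2847 and 2939 normalised counts. The 3xTg_K libraries held 2669, 4197, 3656, 3162 and 4425. The lowest of them was 3xTg_K_1, the low-Thy1 library, which lay within the control range, and the other 4 lay above every 3xTg_C library. WT_C libraries ranged from 2802 to 2839 and WT_K from 2575 to 3176, so the WT groups overlapped.

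Oasl2, an oligoadenylate synthetase-like protein of the antiviral response (chr5:114896936-114912234, plus strand, GRCm38), varied widely among 3xTg_K libraries. Its normalised counts were 33.1, 46.3 and 48.7 in 3xTg_C, and 43.8, 221, 129, 68.2 and 184 in 3xTg_K. They were 47.3, 51.8, 40.2 and 47.5 in WT_C, and 53.5, 38.7, 48.5 and 24.1 in WT_K. The values of 3xTg_K_2 to 3xTg_K_5 lay above all other libraries, while 3xTg_K_1 sat with the controls. The interaction was 1.59 ± 0.66 (95% interval 0.24 to 2.94, limma adjusted p 0.724), and 2.02 ± 0.66 in the repeat (adjusted p 0.748).

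Gbp3 and Gbp7, neighbouring genes for interferon-induced GTPases (chr3:142560026-142573209 and chr3:142530342-142550149, both plus strand), were among the 10 genes of smallest p in the repeat. Gbp3 was at 43.0, 32.7 and 79.2 in 3xTg_C and 32.8, 97.2, 95.5, 57.6 and 138 in 3xTg_K. In WT_C it was 65.9, 53.2, 55.1 and 44.8, and in WT_K 63.2, 42.5, 37.9 and 24.1. The groups overlapped, and the high 3xTg_C value and the low 3xTg_K value are those of the 2 low-Thy1 libraries. The Gbp3 interaction was 1.08 ± 0.52 with these libraries and 1.73 ± 0.46 without them. For Gbp7 it was 0.49 ± 0.24 and 0.83 ± 0.21. The guanylate-binding proteins are similar in sequence, and how reads that match several of them were counted is not given in the sources used here.

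Other members were a sensor of double-stranded RNA, nuclear antiviral proteins and ADP-ribosyl transferases. The interaction was 0.78 ± 0.31 for Parp14, a mono-ADP-ribosyl transferase, 0.89 ± 0.37 for Sp100, a nuclear body protein, and 0.52 ± 0.22 for Eif2ak2, the kinase PKR that halts translation on sensing double-stranded RNA. Bst2 stood at 1.54 ± 0.64 and Xaf1, a pro-apoptotic interferon target, at -0.48 ± 0.30. Repeat values were 1.02 ± 0.33 for Parp14 and 0.39 for Eif2ak2.

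MHC class I genes, which display peptides to T cells, also had positive interactions in most members. All 12 listed genes passed the filter, 11 had a positive and 1 a negative interaction, and the median was 0.38 (0.33 in 3xTg, -0.12 in WT), with 4 at an unadjusted p under 0.05, all positive. Over all genes 49.8% were positive and 3.34% positive at that p. The repeat median was 0.66, with 6 at that p, all positive, against 3.04% of all genes. H2-Q4, a class I molecule (chr17:35379617-35385290, plus strand), was at 26.5, 32.7 and 41.0 normalised counts in 3xTg_C and 37.2, 75.6, 75.0, 34.1 and 112 in 3xTg_K. It was at 49.2, 88.3, 53.3 and 55.6 in WT_C, and in WT_K the lowest was 22.96, the median 37.8 and the highest 76.9. WT mice on the control diet were above 3xTg mice on the control diet for this gene, and each pair of diet groups overlapped. Its interaction was 1.45 ± 0.51 (95% interval 0.40 to 2.50), and 1.77 ± 0.54 in the repeat. For H2-T23 the interaction was 1.13 ± 0.46, for Nlrc5, the transactivator of class I genes, 1.46 ± 0.66, and for B2m 0.38 ± 0.18. Class I genes are near-identical copies in part, and the 2 strains may differ in their sequence, so single H2 values are uncertain.

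Microglial markers did not stand in the same direction as the interferon list. Of 14 homeostatic microglia genes 2 had a positive and 12 a negative interaction (median -0.16). Of 23 measured plaque-associated microglia genes 8 were positive and 15 negative (median -0.13). Over all genes 50.2% were negative. Red blood cell genes, which mark residual blood, summed to 131 in 3xTg_K_1 and to between 445 and 616 in the other 3xTg_K libraries, against 367 to 498 in 3xTg_C and 296 to 427 in WT libraries. Their part in the interferon result was not tested.

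**Figure D2:**
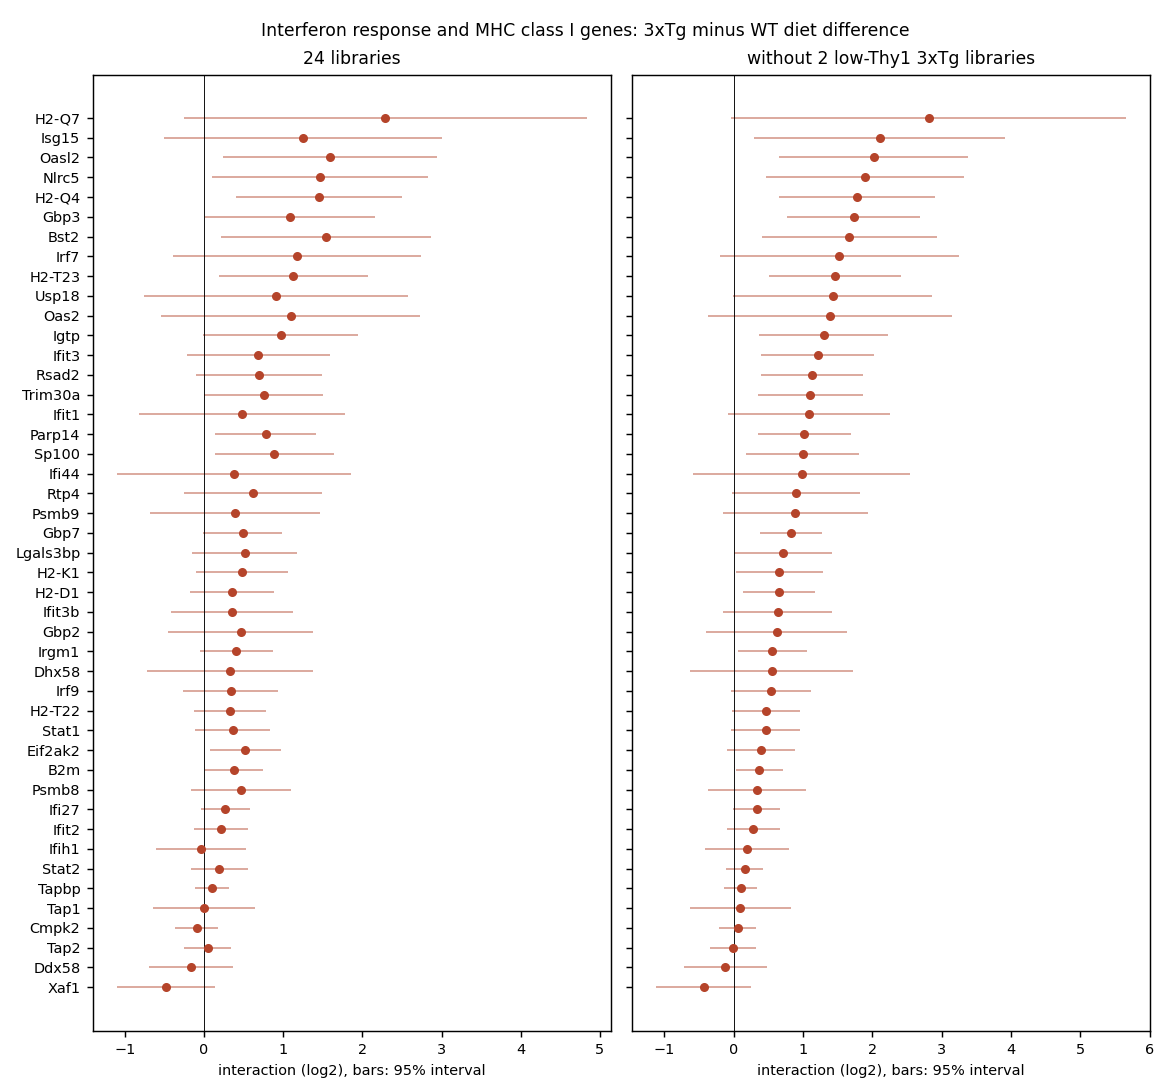
Interaction (log2, points, with 95% intervals as bars) of each measured interferon and MHC class I gene, in all 24 libraries (left) and without the 2 low-Thy1 3xTg libraries (right), ordered by the right panel. Most points lie right of 0 in both panels, and the interferon median moves from 0.49 to 0.83.

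Genes of motile cilia had lower mean values on the ketogenic diet in WT mice and higher ones in 3xTg mice, and none passed the test. The summed values of the diet groups overlapped in each genotype. Of 13 genes of the ependymal and motile cilia list 12 passed the filter, 11 with a positive and 1 with a negative interaction. The median was 0.84, from 0.33 in 3xTg and -0.61 in WT mice, and 7 had an unadjusted p under 0.05, all positive (58.3% of members, against 3.34% of all genes in that direction), and 49.8% of all genes were positive. The repeat median was 0.91, with 6 at that p, all positive, against 3.04% of all genes. Leaving out any 1 of the 16 libraries gave medians between 0.68 and 1.08.

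Cfap44, a protein of the ciliary axoneme that is not on the list (chr16:44394796-44482428, plus strand), had the smallest p of all named genes. Its normalised counts were 105, 116 and 92.5 in 3xTg_C and 142, 135, 156, 146 and 161 in 3xTg_K. They were 193, 144, 122 and 102 in WT_C and 85.1, 94.7, 131 and 90.7 in WT_K. The 3xTg diet groups did not overlap and the WT diet groups did. Here and for the other genes named by smallest p, gaps between diet groups follow in part from that choice. How many of all genes show such a gap was not counted. The diet difference was 0.50 ± 0.16 in 3xTg and -0.46 ± 0.16 in WT mice, and the interaction 0.96 ± 0.22 (95% interval 0.50 to 1.43, limma adjusted p 0.724).

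Dnah6, an axonemal dynein heavy chain (chr6:73017606-73221651, minus strand), is also not on the list and was named by its small interaction p. It was at 40.8, 55.4 and 74.4 in 3xTg_C and 97.4, 113, 55.6, 62.3 and 75.0 in 3xTg_K. In WT_C it was 119, 79.8, 71.0 and 85.1, and in WT_K 64.5, 54.1, 54.4 and 35.6. Here the WT diet groups did not overlap and the 3xTg groups did. The interaction was 1.25 ± 0.36, and 1.38 ± 0.39 in the repeat.

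Foxj1, the transcription factor that switches on motile cilium genes, was at 43.0, 72.7 and 71.6 in 3xTg_C and between 60.0 and 99.6 in 3xTg_K. It was between 79.8 and 108 in WT_C and at 97.5, 69.6, 58.2 and 42.5 in WT_K. Its interaction was 0.94 ± 0.36. Foxj1 is on the list, and other members of the list were Ak7, an adenylate kinase of cilia, at 1.21 ± 0.40, Cfap43 at 1.19 ± 0.41 and Dnah12 at 1.19 ± 0.47. Cep164, a protein outside the list that anchors the basal body of cilia, was also among the 20 genes of smallest p, at 0.45 ± 0.13.

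Summed over the 12 ciliary genes, levels were 362, 403 and 490 normalised counts in 3xTg_C and 656, 573, 444, 455 and 398 in 3xTg_K. They were 548, 388, 528 and 559 in WT_C and 452, 357, 404 and 264 in WT_K. The highest was 3xTg_K_1, a low-Thy1 library, and the lowest WT_K_4. Among 3xTg_K libraries only 3xTg_K_1 and 3xTg_K_2, the library with the fewest reads, lay above all 3xTg_C libraries. The others lay within the 3xTg_C range, and the WT diet groups overlapped. In bulk tissue, fewer ependymal cells in the dissected piece and less RNA per cell cannot be told apart.

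Choroid plexus genes, which mark a tissue that borders the ependyma, were uneven between libraries. Summed over the 12 measured of 15, WT_C_1 held 24093 and WT_K_1 11366 normalised counts, and the other 14 libraries between 2914 and 4249. The list's median interaction of 0.57 became -0.28 without WT_C_1 and 1.31 without WT_K_1, and 9 members were positive and 3 negative, none at an unadjusted p under 0.05. Calml4 had the smallest p of the list, at 1.31 ± 0.67, and Folr1, the folate receptor of the plexus, stood at 0.95 ± 1.11, and at 0.07 without WT_C_1. The median of the ciliary list was 0.87 without WT_C_1 and 0.89 without WT_K_1, and Cfap44 stood at 0.80 without WT_C_1. Markers of the thalamus and habenula were also highest in WT_C_1, at 5532 against 3029 to 3705 elsewhere, and their median of 0.20 became -0.10 without it. Meningeal fibroblast genes had a median of -0.21, which became 0.08 without WT_K_1.

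**Figure D3:**
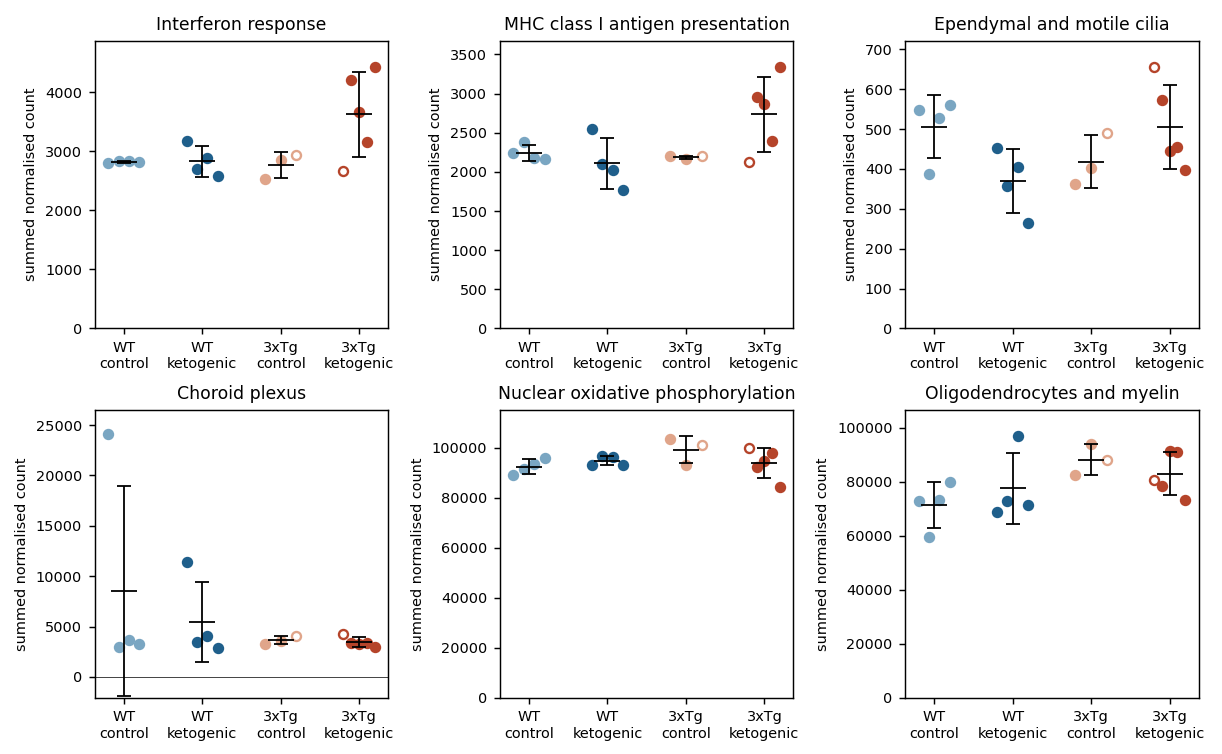
Summed normalised counts of 6 gene lists in each of the 16 libraries, by genotype and diet, with mean ± SD per group and open points for the 2 low-Thy1 3xTg libraries. For interferon genes 4 of 5 3xTg_K libraries lie above all 3xTg_C libraries, and the choroid plexus panel is dominated by WT_C_1 and WT_K_1.

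Among single genes of neurons and the extracellular space, Itgbl1, Neto1 and Cpne7 had positive interactions. Itgbl1, an integrin-like secreted protein (chr14:123659971-123975618, plus strand), was at 146, 141 and 114 in 3xTg_C and 177, 189, 195, 189 and 160 in 3xTg_K. It was at 158, 165, 146 and 173 in WT_C and 117, 159, 72.8 and 97.6 in WT_K. The 3xTg diet groups did not overlap, and 3 of 4 WT_K libraries lay below all WT_C libraries. The interaction was 1.02 ± 0.25, and 0.92 ± 0.28 in the repeat.

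Neto1, an auxiliary subunit of kainate receptors, was at 3517, 3518 and 3420 normalised counts in 3xTg_C and 4303, 3441, 3876, 3834 and 3535 in 3xTg_K. It was at 4520, 4172, 4216 and 3641 in WT_C and 3762, 3581, 2901 and 2902 in WT_K. Both pairs of diet groups overlapped, with the larger difference in WT mice (-0.34 against 0.12). The interaction was 0.46 ± 0.11, and 0.40 ± 0.11 in the repeat.

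Cpne7, a calcium-dependent membrane-binding protein (chr8:123117374-123135182, plus strand), was between 2149 and 2332 in 3xTg_C and between 2665 and 3412 in 3xTg_K, with no overlap. In WT_C it was between 2288 and 2890 and in WT_K between 1629 and 2457. Its interaction was 0.65 ± 0.18, and 0.65 ± 0.20 in the repeat. Notch1, the receptor of the Notch pathway, had an interaction of 0.36 ± 0.11, with diet differences of 0.20 and -0.17. Other positive values were 0.50 ± 0.15 for Samd14 (0.33 in the repeat), 0.33 ± 0.09 for Carf and 0.30 ± 0.09 for Fam120c.

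Of the 20 genes, those with negative interactions lay between -0.71 for Kcnj2 and -0.31 for Ckb. Ckb, the brain creatine kinase that buffers ATP (chr12:111669361-111672338, minus strand), was at 6684, 6159 and 6274 in 3xTg_C and 5892, 5218, 5748, 5198 and 4788 in 3xTg_K. It was at 5522, 5575, 6147 and 6053 in WT_C and 6197, 5714, 5998 and 6344 in WT_K. All 5 3xTg_K libraries lay below all 3xTg_C libraries, and the WT groups overlapped. The interaction was -0.31 ± 0.09, and -0.35 ± 0.09 in the repeat.

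Mrpl36, a protein of the large mitochondrial ribosomal subunit (chr13:73328513-73332178, plus strand), was at 236, 281 and 248 in 3xTg_C and 248, 194, 219, 204 and 191 in 3xTg_K. It was at 227, 214, 215 and 241 in WT_C and 239, 271, 269 and 256 in WT_K. The highest 3xTg_K value is the low-Thy1 library. The interaction was -0.48 ± 0.13, and -0.55 in the repeat. Polr2j, a subunit of RNA polymerase II, stood at -0.40 ± 0.11, and Ell2, an elongation factor of that polymerase, at -0.41 ± 0.12.

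Ppp1r1a, an inhibitor of protein phosphatase 1, had an interaction of -0.50 ± 0.14, with -0.39 in 3xTg and 0.11 in WT mice. Fhl2, a LIM domain adaptor protein, stood at -0.52 ± 0.14, C9orf72, a regulator of autophagy and endosomes, at -0.34 ± 0.09 and Cldn12, a claudin, at -0.35 ± 0.10. Kcnj2, an inward-rectifier potassium channel, stood at -0.71 ± 0.20, but its 3xTg_C values were 217, 242 and 433. The last is the low-Thy1 library 3xTg_C_3, and without both low-Thy1 libraries the interaction was -0.38. The adjusted p of each of the 20 genes was 0.724 with limma and lay between 0.268 and 0.968 over the alternatives run, and none changed sign.

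**Figure D4:**
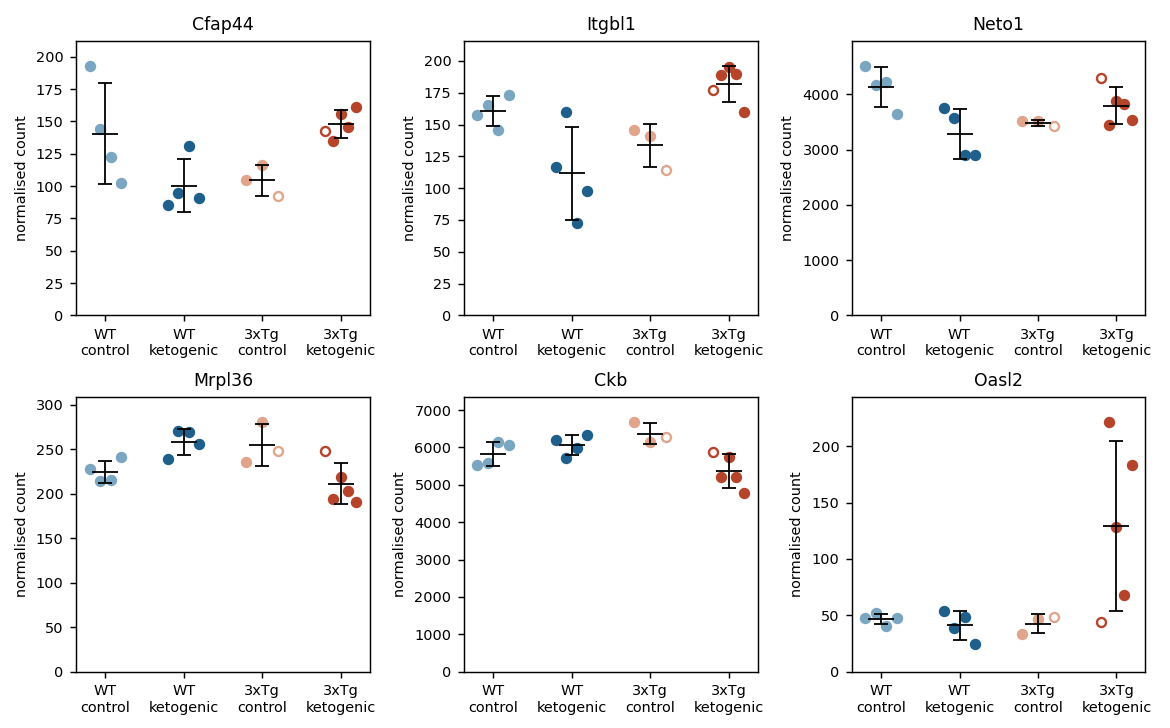
Normalised counts of Cfap44, Itgbl1, Neto1, Mrpl36, Ckb and Oasl2 in each library by genotype and diet, with mean ± SD and open points for the 2 low-Thy1 3xTg libraries. The 3xTg diet groups do not overlap for Cfap44, Itgbl1 and Ckb, which follows in part from choosing these genes by their small interaction p. Oasl2 is highest in 3xTg_K_2 at 221.

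The GABAergic interneuron list held both signs, with more negative than positive members. Cck, the neuropeptide cholecystokinin of a class of inhibitory interneurons (chr9:121489824-121495694, minus strand), was at 2809, 2464 and 2330 in 3xTg_C and 2355, 1837, 2252, 2370 and 1865 in 3xTg_K. It was at 1852, 1862, 2367 and 2318 in WT_C and 2205, 2305, 2521 and 2356 in WT_K. Its interaction was -0.42 ± 0.13, and -0.52 ± 0.13 in the repeat, where it was among the 10 of smallest p. Of 20 measured genes on the GABAergic interneuron list 6 were positive and 14 negative (median -0.12), with 4 at an unadjusted p under 0.05, all negative (3.34% of all genes were negative at that p). Besides Cck, these were the neuropeptide genes Npy (-0.69 ± 0.23) and Tac1 (-0.62 ± 0.27) and the calcium-binding protein gene Pvalb (-0.36 ± 0.15). Gad1 and Gad2, which make GABA, stood at -0.08 ± 0.08 and -0.13 ± 0.08. Of 25 excitatory synapse genes 18 were positive and 7 negative (median 0.07).

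The remaining genes named by the repeat were Dazap2 (-0.37 ± 0.09), Hnmt, which inactivates histamine (-0.41 ± 0.11), Pfdn5, a prefoldin chaperone subunit (-0.43 ± 0.12), Ssr2, a subunit of the translocon complex (-0.43 ± 0.12), and Spink10 (0.58 ± 0.16). With all libraries the same genes stood at -0.27, -0.37, -0.30, -0.34 and 0.28.

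Genes for ketone use, the fuel that the diet supplies, showed small interactions. Of 11 listed genes 10 were measured, 3 positive and 7 negative, with a median of -0.09 and none at an unadjusted p under 0.05. Oxct1, the enzyme that activates acetoacetate for use as fuel, was between 5491 and 6040 in 3xTg_C, 5406 and 5901 in 3xTg_K, 5088 and 5419 in WT_C, and 5393 and 5847 in WT_K. Its interaction was -0.12 ± 0.06 (95% interval -0.25 to 0.0019). Bdh1, which oxidises 3-hydroxybutyrate, stood at -0.16 ± 0.10 (-0.36 to 0.04), and Acat1, a thiolase, at -0.10 ± 0.08.

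Fatty acid uptake and oxidation genes had a median interaction of -0.04 over 31 members, 13 positive and 18 negative. Hadh, a mitochondrial enzyme of beta-oxidation, was the 1 member at an unadjusted p under 0.05, at -0.23 ± 0.11. Cd36, a fatty acid transporter, stood at 0.86 ± 0.46 (95% interval -0.08 to 1.80). Glucose transport, glycolysis and pyruvate entry genes had a median of -0.02 over 28 members, with 12 positive and 16 negative.

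Respiratory chain and ribosome genes had small negative interactions in most members. Of 53 nuclear genes of oxidative phosphorylation 52 were measured, 2 positive and 50 negative, against 50.2% negative over all genes. The median was -0.14, from -0.09 in 3xTg and 0.05 in WT mice. Of the members 8 had an unadjusted p under 0.05, all negative (15.4%, against 3.34% of all genes in that direction). Ndufs8, a subunit of complex I, stood at -0.32 ± 0.12 and Cox7a2, of complex IV, at -0.30 ± 0.13. These 2 were chosen after their values were seen. In the repeat 3 were positive and 49 negative, with 15 at that p, all negative, against 3.57% of all genes. Without 3xTg_K_5 the median was -0.09. The summed level was lowest in 3xTg_K_5, at 84453 normalised counts against 88984 to 103660 in the other 15 libraries.

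Of 50 cytosolic ribosome genes 6 were positive and 44 negative, with a median of -0.16, and without 3xTg_K_5 the median was -0.10. In the fit with all libraries 7 had an unadjusted p under 0.05, all negative. Over all genes 50.2% were negative, and 3.34% were negative at that p. Of the 13 mitochondrially encoded genes listed 8 were measured, 1 positive and 7 negative, with a median of -0.13, which was -0.07 without 3xTg_K_5. The same library held the lowest sum of ribosome genes, at 37913 against 42614 to 50834. Members of these complexes share expression from library to library and are not replicates of the diet.

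Myelin genes had negative interactions in all 16 measured members, against 50.2% of all genes, with a median of -0.22 (-0.14 in 3xTg, 0.11 in WT). Of these, 2 had an unadjusted p under 0.05, where 3.34% of all genes were negative at that p. Cnp, an enzyme of non-compact myelin, stood at -0.41 ± 0.16, Ugt8a, which makes galactosylceramide, at -0.32 ± 0.14, Mog, a myelin surface glycoprotein, at -0.43 ± 0.23 and Aspa, which releases acetate from N-acetylaspartate, at -0.48 ± 0.29. Cnp was between 3039 and 3783 in 3xTg_C, 2423 and 3206 in 3xTg_K, 2115 and 3024 in WT_C and 2546 and 3358 in WT_K. Without WT_K_3, which had the highest myelin sum of the 16 libraries at 96899, the list's median was -0.14, and with library weights it was -0.10. Without 3xTg_C_3, whose Aspa value of 384 compares with 239 and 206 in the other 3xTg_C libraries, Aspa stood at -0.22 and Mog at -0.29. Oligodendrocyte precursor genes stood at a median of -0.16, with 2 positive and 11 negative.

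Immediate early genes, which neurons switch on within minutes of firing, had a median of 0.19 over 24 members. Of these 20 were positive and 4 negative, against 49.8% positive over all genes. Dusp6, a phosphatase of the MAP kinase pathway, was the 1 member at an unadjusted p under 0.05, at -0.34 ± 0.14. Npas4, an activity-dependent transcription factor, stood at 0.92 ± 0.51, with 520 normalised counts in 3xTg_K_3 and 119 to 286 in the other 3xTg libraries. Without WT_C_2, whose Npas4 value of 444 was the highest of the WT libraries, the list's median was 0.09 and Npas4 stood at 0.61. Without WT_C_1 Dusp6 stood at -0.21. In the repeat the list's median was 0.11, with 18 positive and 6 negative members.

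The remaining lists had medians between -0.11 and 0.08. They were -0.11 for dentate gyrus granule cells, -0.07 for pyramidal cells, -0.09 for immature neurons, -0.07 for homeostatic and 0.01 for reactive astrocytes, and 0.01 for endothelial and mural cells. Cholesterol synthesis stood at -0.07, insulin signalling at -0.01, nutrient sensing at 0.04, heat shock chaperones at 0.01, endoplasmic reticulum stress at 0.02, antioxidant defence at -0.06, the circadian clock at 0.02, and glucocorticoid response genes at 0.08. In the repeat some of these medians changed sign. Glucocorticoid response genes stood at -0.07, with 4 positive and 12 negative members against 11 and 5 before, endoplasmic reticulum stress at -0.07, immature neurons at 0.03 and cholesterol synthesis at 0.03. Reactive astrocytes stood at -0.03 and heat shock chaperones at -0.02, and endothelial and mural cells moved to 0.11. None of these lists had a called member in either fit.

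**Figure D5:**
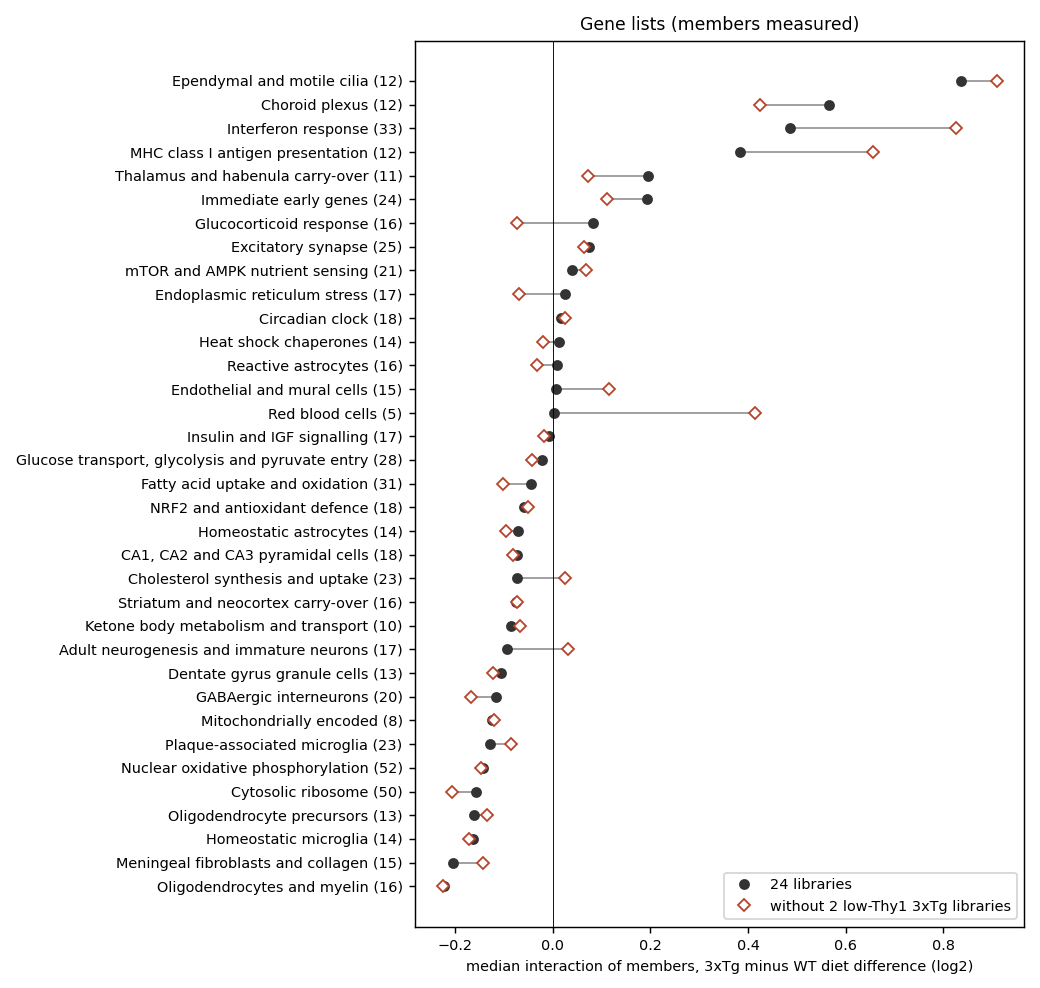
Median interaction (log2) of the measured members of each list with 5 or more, number of members in brackets, in all 24 libraries (filled) and without the 2 low-Thy1 3xTg libraries (open diamonds). Ependymal and motile cilia (0.84) and choroid plexus (0.57) lie farthest right, interferon moves from 0.49 to 0.83, and myelin (-0.22) lies farthest left.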

How the data were processed

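The authors deposited 1 table of signal values, normalised read counts for 21793 genes in 24 poly(A) libraries. Trimmomatic, STAR and GRCm38 are named per the submitters' processing notes, while for the gene counter and annotation nothing is given in the sources used here. In 23 columns the values were whole multiples of 1 step, within 0.01 reads, and these recovered reads went into edgeR 4.0.16 and DESeq2 1.42.0 as alternatives. WT_M_4 was not used in them.

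limma 3.58.1 (R 4.3.3) was run on log2(value + 1) with 6 group means and a mean-dependent prior variance. Genes needed 10 normalised counts in at least 3 libraries. The script was tested on simulated data. Lists were described by counts and medians, with no set test. The members and lists were chosen with earlier results of these data known. Named genes were the 20 of smallest interaction p with a mean of at least 32, 10 likewise from the repeat, and up to 4 per described list. App, Mapt and Thy1 were always included. Bst2, Xaf1, Npy, Tac1, Pvalb, Gad1, Gad2, Ndufs8 and Cox7a2 lay outside this rule, and the sign counts over the alternatives do not cover them. Predicted genes were left out, and 1 of the 20 is not reported here. Positions are from GENCODE M21.

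The labels do not say that replicate numbers mark a shared litter, batch or day. Deviations of 21 same-numbered pairs correlated between -0.26 and 0.19, with 3 over 0.1, so the numbers were not taken to pair samples. The series text counts samples as mice, so p-values measure the spread between mice. No library was a copy of another: chi-square divided by its degrees of freedom was at least 1.80 between any 2 of the 16, and 2.04 within a group, both in pairs with 3xTg_K_2. PCR duplicates cannot be removed from such a table.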

Additional observations from a re-analysis of the deposited data

Results flagged for a closer look

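Of 105 groups of values checked, 7 held 1 library far from the rest, where chance gives about 1 in 20 groups. Choroid plexus genes summed to 24093 normalised counts in WT_C_1, against 3015 to 3640 in the other WT_C libraries, and to 11366 in WT_K_1, against 2914 to 4079 in the other WT_K libraries. Thalamus and habenula genes summed to 5532 in WT_C_1, against 3307 to 3519. The same list was low in WT_K_3, at 3222 against 3318 to 3326, a gap that is small in size. Myelin genes summed to 96899 in WT_K_3, against 68619 to 73020 in the other WT_K libraries. Among single genes, Cldn12 was at 713 in WT_C_1, against 627 to 637. Gbp7 was at 118 in WT_K_1, against 95.3 to 99.0.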

How the results depend on the processing

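The interaction called 0 genes under all 31 alternatives, and 0 under all 26 of the repeat. At an unadjusted p under 0.05, leaving out 1 library gave between 663 and 1464 genes, and between 314 and 1438 in the repeat. In 3xTg mice alone the diet called 1 gene with no filter and between 0 and 1 with 1 library left out, and in WT mice 2 with no filter. With the replicate number as a block 0 genes were called, 435 positive and 382 negative ones had an unadjusted p under 0.05, and 3 of 15 libraries correlated best with their own number. The block turned Thy1 to -0.035 and changed no other sign among named genes. Without the low-Thy1 libraries the median was 0.83 for interferon, 0.66 for MHC class I and -0.10 for fatty acid genes. Chosen after seeing the data, leaving out WT_M_2 as well, whose Thy1 goes against its label, gave 0.83, 0.66 and -0.10, and leaving out 3xTg_K_2 in place of WT_M_2 gave 0.84 for interferon. With 1 library left out, medians ranged from -0.10 to 0.26 for thalamus and habenula, -0.11 to -0.014 for ketone and -0.092 to -0.0082 for fatty acid genes. Interactions that changed sign ranged from -0.15 to 0.33 for Kl, -0.12 to 0.50 for Tcf7l2, -0.018 to 0.22 for App, -0.064 to 0.039 for Mapt and -0.36 to 0.42 for Thy1. Thy1 was at -0.050 without the low-Thy1 libraries, at -0.050 with WT_M_2 left out as well, and at -0.053 with 3xTg_K_2 left out as well. The cause was not tested. Of 2447 values of named genes 2432 kept their sign and 15 did not. Of 403 list medians 391 moved by less than the spread between replicates. The 2.65 M reads of 3xTg_K_2 and 3 control libraries of 3xTg limit the precision.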

Other observations

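The gene families below were chosen after their values were seen, share members with the lists above in part, and are given as a description. Over all genes 49.8% were positive, and 3.34% were positive at an unadjusted p under 0.05. Of 15 axonemal dynein heavy chain genes (Dnah) 14 were measured, 12 with a positive and 2 with a negative interaction. Their median was 0.36, and 5 had an unadjusted p under 0.05, all positive. Of 33 cilia and flagella associated protein genes (Cfap) 27 were measured, 21 positive and 6 negative, with a median of 0.34. Intraflagellar transport genes (Ift), which also serve the immotile primary cilia of neurons, had 4 positive and 10 negative members and a median of -0.07. Guanylate-binding protein genes (Gbp) were positive in all 8 measured members, some of them near the floor, with a median of 0.51, and 0.99 in the repeat. Gbp2b was at 0, 0 and 32.4 in 3xTg_C and 27.4, 10.8, 0, 2.35 and 0.96 in 3xTg_K, against 18.8 to 57.7 in WT libraries. The 32.4 and 27.4 are the low-Thy1 libraries. The Gbp2b interaction was 0.24 ± 1.55, and Gbp6 had a mean of 6.18 normalised counts. Gbp4 was at 239 normalised counts in 3xTg_K_5 and 95.3 in WT_C_2, and between 6.89 and 65.3 in the other libraries.

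Mitochondrial ribosome genes had 18 positive and 58 negative members (median -0.10), proteasome genes 5 and 33 (median -0.10), and RNA polymerase II subunits 1 and 12 (median -0.14). Over all genes 50.2% were negative. No member of these families was called.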
